A study of Homo sapiens with 6 samples.

Results

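Autophagy and lysosome genes form a group of 47 genes, taken by symbol from the 58336 genes of the count table: the factors that start an autophagosome, the enzymes that attach ATG8 proteins to its membrane, the ATG8 proteins and cargo receptors, the MiT/TFE transcription factors and a set of lysosomal proteins. All 47 were found through their Ensembl identifiers. A2780 is an established human ovarian cancer line, and every library came from it, with no genetic change given in the labels. The DMSO group received 0.1% DMSO, the TH588 group received TH588 (6 µM), a first-generation mitotic inhibitor of the nucleotide-sanitizing enzyme MTH1, and both were harvested at 48 h. RNA was sequenced from biological triplicates (replicates A, B and C), giving 3 DMSO and 3 TH588 libraries.

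Autophagy encloses cytoplasm in a double membrane that later fuses with the lysosome. The ULK1 kinase complex and a lipid kinase complex around PIK3C3 start the membrane, WIPI, ATG2 and ATG9 proteins supply it with lipid, and an enzyme cascade couples ATG8 proteins (the LC3 and GABARAP families) to it, where cargo receptors dock. TFEB and TFE3 are transcription factors that are known to switch on lysosomal and autophagy genes when they reach the nucleus, which is controlled by phosphorylation of the proteins and not only by their RNA.

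Total counts ranged from 77634048 to 99074175 in 5 libraries and were 28537837 in TH588 replicate A, which stands apart in depth and in *SNORD3A*, a small nucleolar RNA that held 21.94% of its counts and 7.681% to 12.95% elsewhere. The values below are CPM, counts per 1000000 of the TMM-scaled library size, with mean ± SD over 3 libraries. They average over all cells of a culture, so a change in the share of some cells and a change of RNA per cell cannot be told apart. Of the epithelial and ovarian markers checked, *PAX8* and *SOX17* had 0 counts in all DMSO libraries, *EPCAM* lay between 0.497 and 0.886 CPM with DMSO and between 4.33 and 4.96 CPM after TH588, and *KRT18* between 3.14 and 3.86 CPM and between 6.13 and 7.0 CPM. Of the 10 markers of these lists, the other 8 stayed at or under 0.262 CPM in every library. The part of the *EPCAM* and *KRT18* shift in the results below was not tested. The blood cell markers *PTPRC*, *CD3E*, *CD14* and *HBB* and the endothelial markers *PECAM1*, *VWF* and *CDH5* reached at most 0.411 CPM (*CD14*) in any of the 6 libraries. *NUDT1*, which encodes MTH1, had 18.0, 15.5 and 15.2 CPM with DMSO and 8.52, 10.3 and 9.98 CPM with TH588 (log2 fold change -0.75, adjusted p = 0.000232 by edgeR).

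To learn how the autophagy and lysosome transcripts responded, edgeR's quasi-likelihood test was run across all genes, with an adjusted p under 0.05 as the threshold. Of the 47 genes, 46 passed the filter on low counts, 27 were higher after TH588, 4 were lower and 15 did not pass the threshold. Over all 15844 genes tested, 24.2% were called higher and 25.3% lower (49.6% in either direction), against 58.7% and 8.7% of the 46. All TH588 libraries lay above all DMSO libraries for 28 of the 46 and below them for 4, beside 28.7% and 29% of all genes tested. The median log2 fold change of the group was 0.55, beside 0.02 over all genes tested. The members were chosen with earlier results of these data known, so these contrasts describe the group and do not test it. The largest rises were those of *GABARAPL1*, *OPTN*, *MAP1LC3A*, *NBR1*, *WIPI1*, *CTSD* and *PIK3C3*, which were the 7 genes called higher by more than 2-fold (9.75% of all genes tested were). All 4 falls were in the conjugation machinery. Without TH588 replicate A, 28 were higher and 2 lower, without DMSO replicate A or C also only 2 were lower, and with library size in place of TMM 28 were higher and 2 lower. Library size alone moved the median over all genes tested to 0.126 and that of the group to 0.66.

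**Figure D1:**
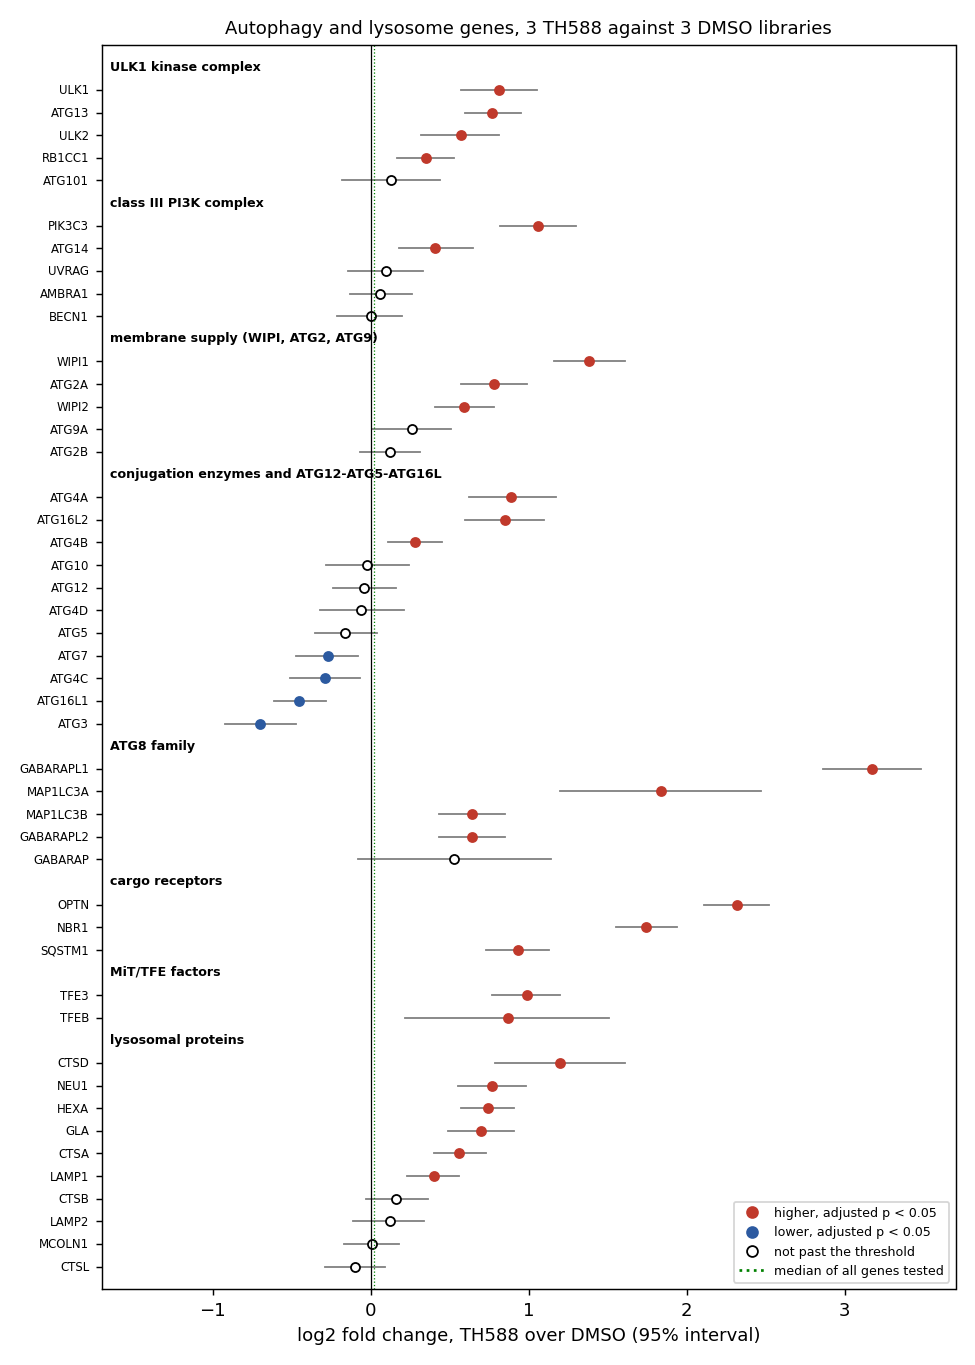
Log2 fold change of each tested gene (points) with its 95% interval (lines), TH588 over DMSO, ordered by role; filled red points were higher and blue points lower at an adjusted p under 0.05, open points did not pass, and the dotted line is the median of all genes tested. *GABARAPL1* lies farthest to the right, at 3.17, and the 4 blue points are all among the conjugation enzymes.

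The 5 members of the ATG8 family, the small ubiquitin-like proteins that coat the autophagosome and bind cargo receptors, gave 4 rises and 1 gene that did not pass. Over all genes tested, 24.2% were called higher. *GABARAPL1* (ENSG00000139112, chromosome 12 of GRCh38 from 10212458 to 10223130) had 3.82, 4.33 and 4.70 CPM with DMSO and 46.1, 32.7 and 37.0 CPM with TH588, listed here and below in the order A, B, C. Every TH588 library was thus far above every DMSO library, a rise of 8.98-fold (log2 fold change 3.17, standard error 0.14, adjusted p = 1.98e-08 by edgeR). *MAP1LC3B*, which encodes LC3B, the usual marker of autophagosomes, went from 53.6, 63.9 and 63.8 CPM to 98.0, 85.3 and 99.3 CPM, a smaller rise of 1.56-fold (adjusted p = 0.000144 by edgeR). The groups did not overlap for it, nor for *GABARAPL2*, with 25.6, 27.7 and 29.9 CPM under DMSO and 46.9, 39.1 and 43.7 CPM under TH588 (1.56-fold, adjusted p = 0.000148 by edgeR). *MAP1LC3A*, which encodes LC3A, was scarce, at 0.389, 0.812 and 0.758 CPM before and 1.68, 2.48 and 2.74 CPM after treatment (log2 fold change 1.84, standard error 0.29, adjusted p = 0.000224 by edgeR). *MAP1LC3B* has a near-identical copy, *MAP1LC3B2*, with which it may share reads. The copy went from 0.292 ± 0.0627 to 0.649 ± 0.247 CPM (SD, n = 3 each; adjusted p = 0.0370 by edgeR).

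*GABARAP* was the ATG8 gene that did not pass, with 4.36, 3.87 and 3.82 CPM under DMSO and 2.76, 5.56 and 8.58 CPM under TH588. TH588 replicate A lay below the DMSO libraries and the other TH588 libraries above them. The log2 fold change was 0.53 (95% interval -0.08 to 1.14, adjusted p = 0.137 by edgeR), and 0.82 without TH588 replicate A, where it passed (adjusted p = 0.00244 by edgeR), but 0.12 without TH588 replicate C (adjusted p = 0.722). It also passed with no filter on low counts (0.54, adjusted p = 0.00323). Exons of other genes, among them a readthrough gene, cover 55.7% of the exon bases of *GABARAP*, so its low count is an uncertain measure of the gene. These other genes had at most 4 counts in any library, and how reads in shared bases were counted is not stated.

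Set per kb of exon length, the 5 ATG8 genes summed to 23.7 ± 1.86 CPM per kb with DMSO and 45.2 ± 3.82 CPM per kb with TH588 (SD, n = 3 each). *MAP1LC3B* was the most abundant of them in each library, at 47.9% ± 1.33 of this sum with DMSO and 39.2% ± 0.241 with TH588 (SD, n = 3 each). The share of *GABARAPL1* was 4.33%, 4.34% and 4.57% in the DMSO libraries and 23.8%, 19.6% and 19.1% in the TH588 libraries. *GABARAPL2* held 38.6% ± 0.984 before and 31.5% ± 1.17 after treatment (SD, n = 3 each). For these 3 genes no share overlapped between the groups. The uncertain count of *GABARAP* enters the sum, so the sum, the shares and the order of the genes carry that limit. Exon length, here and below, covers all annotated exons of a gene and may differ from the length of the transcript expressed. Every order of genes per kb depends on it. For groups of 3 libraries, the smallest p that an exact permutation test (two-sided) of a share allows is 0.1.

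**Figure D2:**
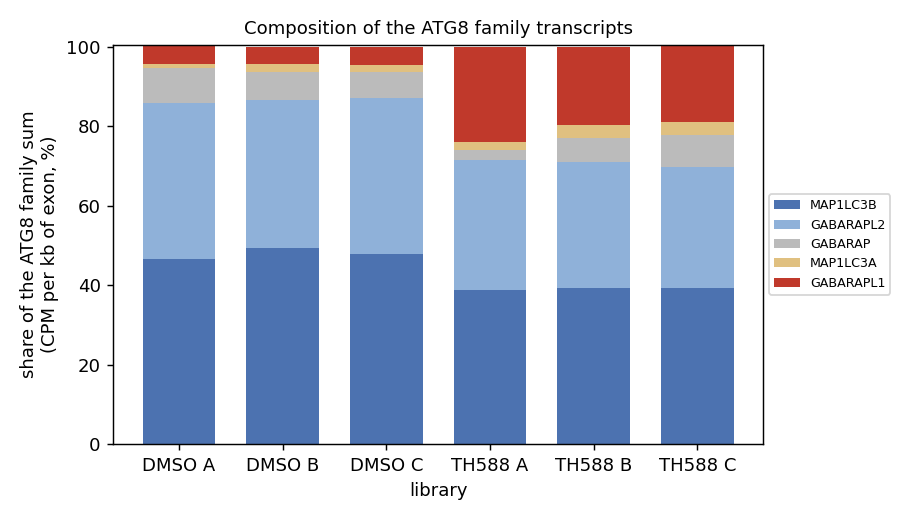
Share of each ATG8 gene in the family sum of CPM per kb of exon, in percent, for each of the 6 libraries. The *GABARAPL1* part is 4.33% to 4.57% high in the DMSO bars and 19.1% to 23.8% in the TH588 bars. All shares depend on the uncertain count of *GABARAP* and on the exon lengths used.

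The 3 cargo receptors, which bind ubiquitinated cargo and ATG8 proteins at the same time, all rose. The share called higher over all genes tested was 24.2%. *OPTN* (ENSG00000123240, chromosome 10 from 13099449 to 13138308), which encodes optineurin, a receptor for damaged mitochondria and bacteria, had 15.3, 13.3 and 15.4 CPM with DMSO and 67.1, 73.6 and 77.7 CPM with TH588. This 4.98-fold rise (log2 fold change 2.32, standard error 0.10, adjusted p = 1.4e-08 by edgeR) had the smallest adjusted p among the 46 genes. *NBR1* (ENSG00000188554, chromosome 17 from 43170481 to 43211689), a receptor for protein aggregates and peroxisomes, went from 22.3, 26.3 and 25.8 CPM to 80.3, 80.5 and 88.4 CPM, or 3.35-fold (log2 fold change 1.74, standard error 0.09, adjusted p = 5.47e-08 by edgeR). *SQSTM1*, which encodes p62, rose less, from 57.1, 51.1 and 53 CPM to 90.1, 110.2 and 105.6 CPM (1.90-fold, adjusted p = 5.89e-06 by edgeR). Per kb of exon, *SQSTM1* led the receptors under DMSO with 7.02 ± 0.400 CPM per kb, ahead of *NBR1* with 2.95 ± 0.261 and *OPTN* with 2.85 ± 0.232, which did not differ beyond their spread. Under TH588 *OPTN* reached 14.2 ± 1.04 CPM per kb, within the spread of *SQSTM1* at 13.3 ± 1.38, with *NBR1* at 9.88 ± 0.551 (SD, n = 3 each). Exons of other genes cover 22% of the exon bases of *SQSTM1*, 5.51% of those of *NBR1* and 2.86% of those of *OPTN*.

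**Figure D3:**
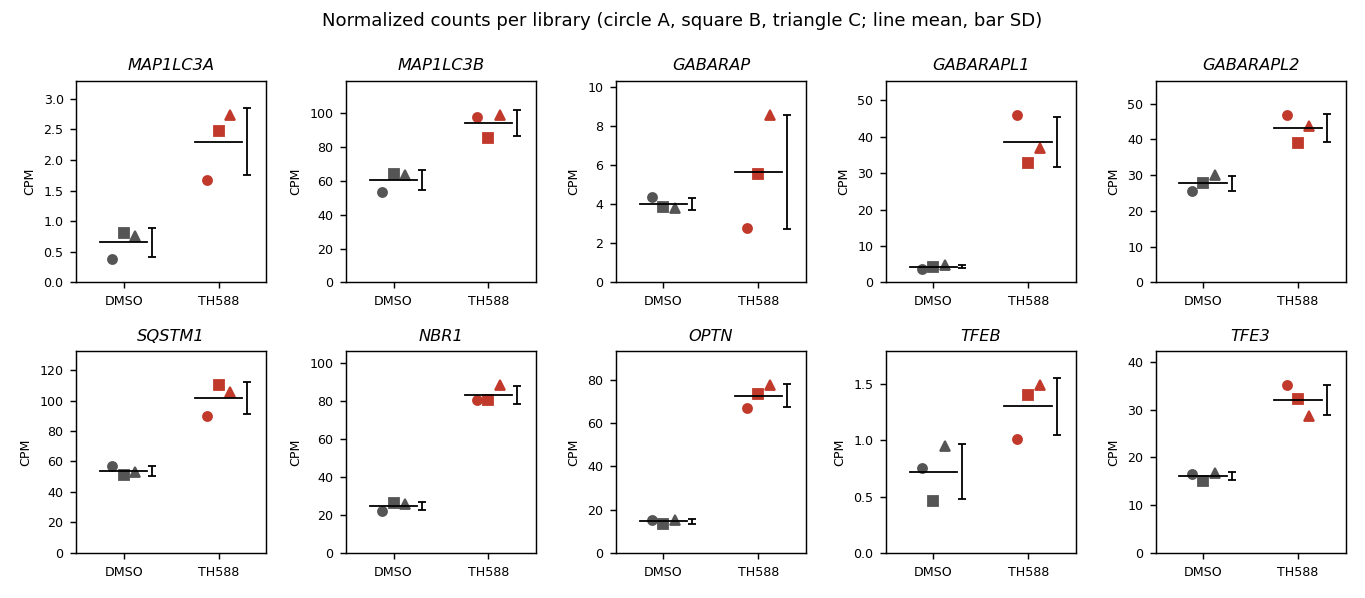
CPM of the ATG8 genes (upper row), the 3 cargo receptors and the transcription factors *TFEB* and *TFE3* (lower row) in each library; circles, squares and triangles are replicates A, B and C, lines are means and bars are SD of 3 libraries, and each vertical axis starts at 0. The groups overlap only for *GABARAP*, where TH588 replicate A lies at 2.76 CPM, below the DMSO libraries.

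Genes that start and feed the autophagosome rose in part. In the ULK1 kinase complex, 4 of 5 genes were higher, beside 24.2% of all genes tested, with log2 fold changes from 0.35 to 0.81. *ULK1*, its kinase, had 8.54, 7.74 and 8.27 CPM with DMSO and 13.1, 15.2 and 14.7 CPM with TH588 (1.76-fold, adjusted p = 7.40e-05 by edgeR). *ATG13*, the adaptor of the kinase, went from 26.6, 26.0 and 28.0 CPM to 44.2, 46.0 and 47.5 CPM (1.71-fold, adjusted p = 7.73e-06 by edgeR). The related kinase gene *ULK2* (0.57) and the scaffold gene *RB1CC1* (0.35), which encodes FIP200, rose less on the log2 scale. *ATG101* did not pass (log2 fold change 0.13, 95% interval -0.18 to 0.44).

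Of the 5 genes of the class III lipid kinase complex, 2 rose and 3 did not pass, where 24.2% of all genes tested were called higher. *PIK3C3* (ENSG00000078142, chromosome 18 from 41955206 to 42087830), which encodes the kinase VPS34 itself, had 25.3, 31.8 and 32.0 CPM with DMSO and 64.3, 54.7 and 66.6 CPM with TH588. It rose 2.08-fold (log2 fold change 1.06, standard error 0.11, adjusted p = 8.77e-06 by edgeR), with no overlap between the groups. *ATG14*, the subunit that directs the complex to autophagy, rose 1.33-fold, from 7.53 ± 0.0869 to 10.0 ± 0.484 CPM (SD, n = 3 each). *BECN1*, *UVRAG* and *AMBRA1*, which encode partners and regulators of the kinase, had overlapping groups and log2 fold changes between -0.00 and 0.10. For *BECN1* the 95% interval was -0.21 to 0.20, and 17.1% of its exon bases are shared with neighbours.

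Among the 5 genes of lipid supply, *WIPI1*, *ATG2A* and *WIPI2* rose, beside 24.2% of all genes tested. *WIPI1* (ENSG00000070540, chromosome 17 from 68420948 to 68457513), a phosphoinositide-binding protein that marks the growing membrane, went from 10.6, 10.6 and 9.71 CPM to 29.4, 25.8 and 25.6 CPM. The 2.61-fold rise (log2 fold change 1.38, standard error 0.10, adjusted p = 5.65e-07 by edgeR) left the groups far apart, although 28.1% of its exon bases overlap other genes, among them *ARSG*. *ATG2A*, a lipid transfer protein, rose 1.72-fold to 77.8 ± 8.72 CPM (SD, n = 3), while its paralog *ATG2B* did not pass, at 26.8 ± 1.71 CPM before and 29.2 ± 1.25 CPM after (95% interval of the log2 fold change -0.07 to 0.31). *WIPI2* rose 1.51-fold. *ATG9A*, a lipid scramblase carried on vesicles, did not pass (log2 fold change 0.26, adjusted p = 0.0765 by edgeR), but passed without DMSO replicate A (0.36, adjusted p = 0.0352) and without TH588 replicate C (0.37, adjusted p = 0.0298), with library size only (0.36, adjusted p = 0.0295) and with at least 10 counts in every library (0.28, adjusted p = 0.0483). A readthrough gene with at most 21 counts in a library shares 38.8% of its exon bases.

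Of the 11 genes of the conjugation machinery, 3 were higher, 4 lower and 4 did not pass. These shares of 27.3% higher and 36.4% lower stand beside 24.2% and 25.3% of all genes tested, no difference between roles was tested, and the median log2 fold change was -0.06. *ATG3* (ENSG00000144848, chromosome 3 from 112532509 to 112562046), the E2-like enzyme that transfers ATG8 proteins to lipid, had 80.1, 74.9 and 80.1 CPM with DMSO and 57.1, 44.7 and 43.7 CPM with TH588. Each TH588 library was below each DMSO library, a log2 fold change of -0.70 (adjusted p = 0.000135 by edgeR). *ATG16L1*, which places the conjugation enzyme on the membrane, fell from 68.8, 66.2 and 68.5 CPM to 48.6, 52.2 and 48.3 CPM (log2 fold change -0.45, adjusted p = 0.000378 by edgeR). Its paralog *ATG16L2* went the other way, from 10.1, 9.42 and 9.73 CPM to 15.1, 18.0 and 19.4 CPM (log2 fold change 0.85, adjusted p = 7.37e-05 by edgeR). Per kb of exon *ATG16L1* remained the more abundant of the pair after TH588, at 8.22 ± 0.363 against 2.03 ± 0.256 CPM per kb (SD, n = 3 each).

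*ATG7*, the E1-like enzyme, and *ATG4C*, a protease that processes ATG8 proteins, also passed as lower, with log2 fold changes of -0.27 and -0.29 (adjusted p = 0.0228 and 0.0290 by edgeR). Of the exon bases of *ATG7*, 18.1% overlap another gene. Neither call was firm. That of *ATG7* was lost with library size only (-0.16) and without DMSO replicate A, B or C or TH588 replicate A (-0.28, -0.22, -0.28 and -0.21). That of *ATG4C* was lost with library size only (-0.19), with no filter on low counts (-0.28, adjusted p = 0.0564), with a replicate block (-0.29, adjusted p = 0.0617) and without DMSO replicate A or C or TH588 replicate A or B (-0.24, -0.30, -0.26 and -0.27). The other ATG4 proteases differed: *ATG4A* rose from 4.92, 5.76 and 5.19 CPM to 9.53, 9.10 and 10.8 CPM (log2 fold change 0.89, adjusted p = 8.53e-05 by edgeR), and *ATG4B* rose by 0.28, a call that was lost without DMSO replicate B (0.27) or C (0.28). *ATG4D* did not pass. *ATG5*, *ATG10* and *ATG12*, the genes of the ubiquitin-like ATG12 conjugate, did not pass either, with 95% intervals of the log2 fold change inside -0.35 to 0.24 for these and *ATG4D*.

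Of the MiT/TFE factors, *TFE3* was the abundant member. It went from 16.6, 15.1 and 16.7 CPM to 35.2, 32.3 and 28.8 CPM, a rise of 1.98-fold (log2 fold change 0.99, standard error 0.10, adjusted p = 6.95e-06 by edgeR). *TFEB* was near 1 CPM, at 0.754, 0.460 and 0.950 CPM under DMSO and 1.01, 1.4 and 1.49 CPM under TH588. It passed as higher (log2 fold change 0.87, standard error 0.30, adjusted p = 0.0280 by edgeR), but not without DMSO replicate B (0.63), TH588 replicate B (0.82) or TH588 replicate C (0.79). Per kb of exon, *TFE3* exceeded *TFEB* in both groups, at 3.77 ± 0.207 against 0.128 ± 0.0436 CPM per kb with DMSO and 7.49 ± 0.747 against 0.230 ± 0.0449 with TH588 (SD, n = 3 each). *MITF* had 8, 2 and 9 counts in the DMSO libraries and 3, 2 and 0 in the TH588 libraries, too few to be tested.

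Of the 10 lysosomal genes, 6 rose, none fell and 4 did not pass at an adjusted p under 0.05 by edgeR, and their median log2 fold change was 0.48. Of all genes tested, 24.2% were called higher and 25.3% lower. All TH588 libraries lay above all DMSO libraries for 7 of the 10, against 28.7% of all genes tested. *GLA* (ENSG00000102393, chromosome X from 101397803 to 101407925), which encodes alpha-galactosidase A, had 174.7, 188.6 and 195.4 CPM with DMSO and 346.5, 277.2 and 283.6 CPM with TH588 (1.62-fold, log2 fold change 0.70, adjusted p = 8.30e-05 by edgeR). It was the most abundant of the 47 genes per kb of exon in both groups. The beta-hexosaminidase gene *HEXA* went from 44.6, 48.0 and 43.2 CPM to 77.0, 74.4 and 75.3 CPM (1.67-fold, adjusted p = 8.67e-06 by edgeR), and the sialidase gene *NEU1* from 44.4, 43.9 and 35.8 CPM to 74.3, 71.2 and 65.8 CPM (1.70-fold, adjusted p = 4.25e-05 by edgeR). *CTSA*, which encodes the protective protein that holds the sialidase in a complex, rose from 146.8, 135.2 and 136.3 CPM to 206.0, 209.5 and 202.1 CPM (1.48-fold, adjusted p = 5.91e-05 by edgeR), with 28.5% of its exon bases shared with other genes. The log2 fold changes of these 4 genes lay between 0.56 and 0.77. Other genes share 16.3% of the exon bases of *HEXA*.

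*LAMP1*, a heavily glycosylated protein of the lysosomal membrane, rose modestly from 90.3, 86.2 and 87.3 CPM to 121.1, 114.2 and 112.0 CPM (1.32-fold, adjusted p = 0.000824 by edgeR). Its relative *LAMP2*, the receptor of chaperone-mediated autophagy, had 37.8, 47.1 and 44.8 CPM and then 52.1, 43.1 and 45.7 CPM, which overlap. *MCOLN1*, the lysosomal calcium channel, was level at 48.1 ± 1.12 and 48.4 ± 3.33 CPM (SD, n = 3 each; 95% interval of the log2 fold change -0.17 to 0.18). Among the cathepsins, *CTSB* (29.1 ± 1.49 and 32.7 ± 2.62 CPM) and *CTSL* (94.8 ± 2.47 and 88.6 ± 8.78 CPM; SD, n = 3 each) did not pass. *CTSD* passed, from 1.4, 1.70 and 1.27 CPM to 2.84, 3.27 and 3.82 CPM (log2 fold change 1.2, adjusted p = 0.000204 by edgeR). Other genes share 52.7% of its exon bases, each with at most 4 counts in a library, so its low count is an uncertain measure of cathepsin D RNA.

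**Figure D4:**
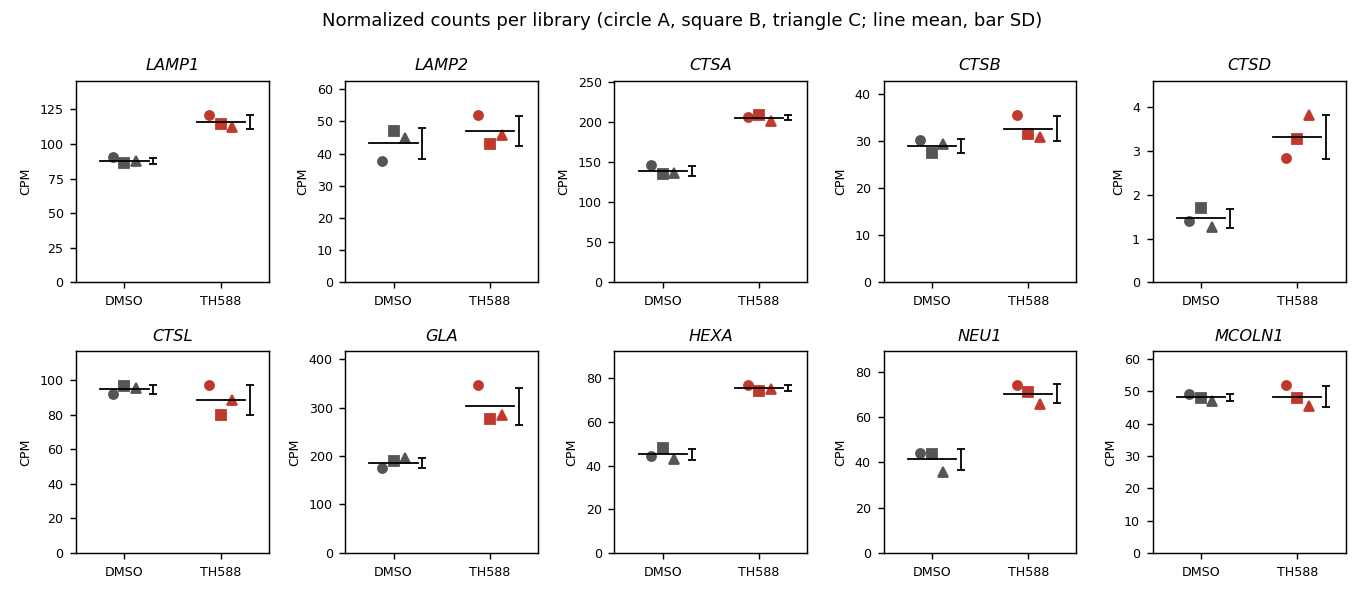
CPM of the 10 lysosomal genes in each library; circles, squares and triangles are replicates A, B and C, lines are means and bars are SD of 3 libraries, and each vertical axis starts at 0. *GLA* shows the highest values, up to 346.5 CPM in TH588 replicate A, and *MCOLN1* the closest means, 48.1 and 48.4 CPM.

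TFEB and TFE3 are known to bind the letters CACGTG, the core of the CLEAR element, which read the same on either strand. RefSeq promoters (GRCh38.p14, 250 bases before to 50 after the gene start) were at hand for 40 of the 47 genes. Where RefSeq gives several starts for a gene (8 of the 40), only the first listed was searched. CACGTG was found in 7 of these 40 (17.5%), against 7.43% of all 27305 promoters. The longer match TCACGTGA, which contains it and also reads the same on either strand, was in 4 (10%, against 1.04%). The 27305 promoters were not limited to protein-coding genes or to genes that passed the filter on low counts. The shares thus come from unlike sets, and the difference was not tested. The 7 genes were *LAMP1*, *MCOLN1*, *CTSA*, *NEU1*, *CTSD*, *ATG14* and *ATG3*. The stretches before the start of 5 of them, limited to bases outside exons annotated by GENCODE, are shown with CACGTG in capitals, to set the letters beside the changes:
LAMP1 (chr13:113297039-113297238, plus strand): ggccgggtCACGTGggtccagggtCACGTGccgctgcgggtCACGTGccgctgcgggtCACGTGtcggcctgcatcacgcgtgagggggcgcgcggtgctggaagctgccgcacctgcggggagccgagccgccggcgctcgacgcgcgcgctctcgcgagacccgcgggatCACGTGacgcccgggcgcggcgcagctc
MCOLN1 (chr19:7522544-7522623, plus strand): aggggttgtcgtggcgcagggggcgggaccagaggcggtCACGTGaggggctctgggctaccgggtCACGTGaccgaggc
NEU1 (chr6:31862906-31862961, minus strand): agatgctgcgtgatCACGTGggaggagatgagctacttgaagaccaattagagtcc
CTSD (chr11:1763965-1764007, minus strand): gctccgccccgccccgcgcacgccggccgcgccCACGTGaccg
ATG14 (chr14:55411831-55411910, minus strand): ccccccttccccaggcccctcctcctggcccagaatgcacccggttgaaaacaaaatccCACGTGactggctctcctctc

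*LAMP1* holds 6 copies in its promoter, of which 5 lie in the stretch shown, and rose by 0.40 on the log2 scale. *MCOLN1* holds 2 copies and its log2 fold change was 0.01, while *NEU1*, *CTSD* and *ATG14*, with 1 copy each, had 0.77, 1.2 and 0.41. *CTSA* has 2 copies and 0.56, and *ATG3*, with 2 copies, fell by 0.70. The genes with the letters in this window went up, down or did not pass. The promoters searched for *GABARAPL1*, *OPTN* and *NBR1* did not hold these letters, and bases outside the window were not searched. A link between the letters and the changes was not tested. A match is a run of letters and not a measured binding site.

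Over 6 other lists of pathway genes, 75 of 129 genes tested were higher (58.1%) and 11 lower (8.53%), with a median of 0.36 on the log2 scale. The shares over all genes tested were 24.2% higher and 25.3% lower. Like the members, these lists were chosen with earlier results of these data known. Of 31 further genes of the autophagy machinery and receptors, 30 could be tested, 17 were higher, 3 lower and 10 did not pass. The largest rises by the rule for named genes were *ZFYVE1*, a marker of the membrane platform where autophagosomes form, from 4.35 ± 0.543 to 18.4 ± 1.39 CPM, *PINK1*, the kinase that flags damaged mitochondria, from 6.21 ± 0.631 to 17.5 ± 1.68 CPM, and *VAMP8*, a SNARE of autophagosome fusion, from 13.3 ± 0.960 to 36.6 ± 11.0 CPM (SD, n = 3 each). *VAMP8* was highest in TH588 replicate A, at 48.2 CPM against 26.3 and 35.3 CPM, and 41.7% of the exon bases of *PINK1* overlap other genes. *BNIP3*, a mitophagy receptor, showed the largest fall, from 90.6 ± 4.82 to 44.9 ± 2.60 CPM (log2 fold change -1.01, adjusted p = 1.11e-06 by edgeR). Its paralog *BNIP3L*, named after its values were seen, went the other way, from 24.1 ± 3.03 to 56.4 ± 5.30 CPM (1.22, adjusted p = 2.35e-06 by edgeR). *WDR45B* and *PIK3R4* were the other falls, by 0.52 and 0.24 on the log2 scale.

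Of 17 subunits of the vacuolar ATPase, the pump that acidifies the lysosome, 10 were higher, 1 lower and 6 did not pass. Here and for the lists below, the shares over all genes tested were 24.2% higher and 25.3% lower. *ATP6V0A1* rose from 37.0 CPM in each DMSO library to 64.7, 77.7 and 85.0 CPM, *ATP6V1H* from 28.3 ± 3.19 to 51.6 ± 1.4 CPM and *ATP6V1A* from 73.9 ± 6.90 to 119.3 ± 11.2 CPM, while *ATP6V0A2*, another form of the a subunit, fell by 0.39 on the log2 scale. Among 38 other lysosomal enzymes, 23 were higher, 4 lower and 11 did not pass. *GAA*, which encodes acid alpha-glucosidase, rose from 48.8 ± 1.29 to 127.7 ± 14.8 CPM, *CTSF*, a cathepsin, from 5.76 ± 0.811 to 14.3 ± 0.947 CPM, and *GM2A*, the activator of beta-hexosaminidase, from 8.87 ± 0.655 to 21.2 ± 2.53 CPM (SD, n = 3 each). The falls included *ARSB*, *CTSC* and *PPT1*, by 0.73, 0.67 and 0.50 on the log2 scale. Of 20 other membrane and sorting proteins of the lysosome, 9 were higher, none was lower by edgeR and 11 did not pass, with rises of *NPC2* (0.91), *CLCN7* (0.89) and *GNPTG* (0.53). Overlap with exons of other genes was 6.37% of the exon bases for *NPC2*, 16.1% for *CLCN7* and 30.9% for *GNPTG*. For *PPT1* it was 23.4%.

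**Figure D5:**
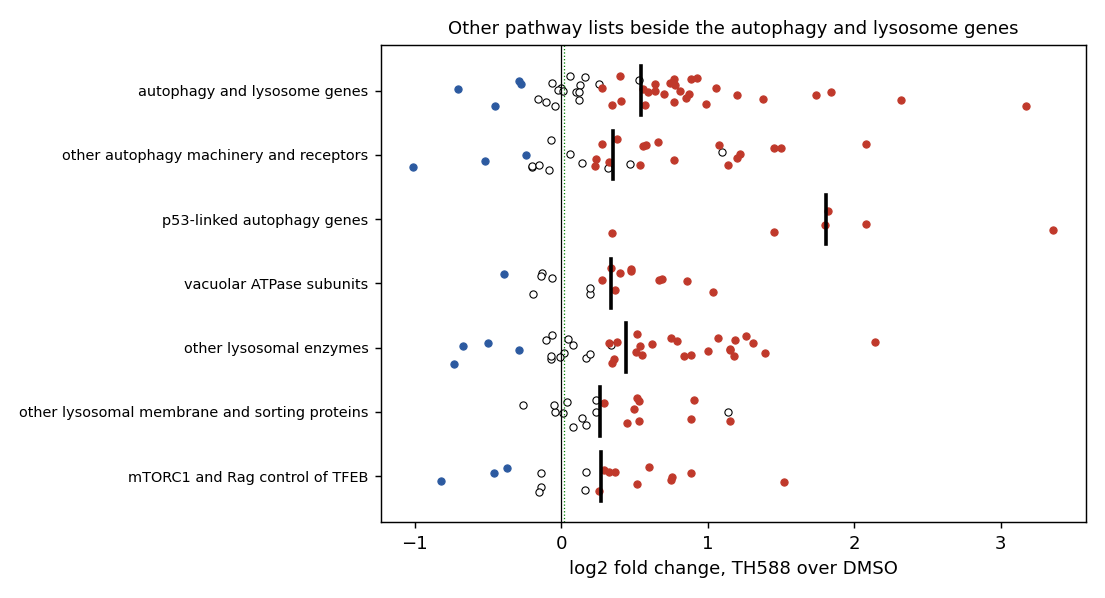
Log2 fold change, TH588 over DMSO, of each tested gene in the autophagy and lysosome group and in 6 other lists (points, red higher, blue lower, open not past the threshold), with the median of each list as a black bar and that of all genes tested as a dotted line. The medians of the lists lie between 0.27 and 1.81, to the right of the dotted line at 0.02.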

How the data were processed

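RNA from A2780 cells was sequenced in 6 libraries. The authors aligned reads to GRCh38 with TopHat and counted them per gene with featureCounts 1.4.6; they deposited the counts without normalization, with an exon length per gene. The TruSeq v2 kit does not mark strand, and the treatment of reads shared by genes is not given in the sources used here. The members and gene lists were chosen with earlier results of these data known.

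Counts were compared in R 4.3.3 with edgeR 4.0.16, using TMM factors, its default low-count filter (15844 genes kept), the quasi-likelihood test and Benjamini-Hochberg adjustment over all genes tested, with no term for the replicate letter. Standard errors were derived from the log2 fold change and the F statistic. The procedure was tested on simulated counts. Every group member could be named; in the other lists, the 3 largest rises and falls among called genes whose groups did not overlap and whose mean log2 CPM was 2 or more. Exon overlap was computed from the table's own exons. Alternatives were DESeq2 1.42.0, its size factors, library size only, limma-voom (limma 3.58.1), other filters, each library left out, a replicate block and an adjusted p under 0.01; leaving out members with over 10% exon overlap was chosen after seeing the data. Replicates of a group differed beyond sampling noise (chi-square per degree of freedom 23.5 to 165), so each library was 1 replicate. A marker gene of the lists is not reported here.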

Additional observations from a re-analysis of the deposited data

How the results depend on the processing

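The number of autophagy and lysosome genes called higher was 25 to 28 under all alternatives except for 22 once members with over 10% exon overlap were left out, where 35 genes remained. The number called lower was 4 and became 2 with library size only and at an adjusted p under 0.01, and ranged from 2 to 4 across the fits without a replicate: it was 2 without DMSO replicate A, DMSO replicate C or TH588 replicate A. The median log2 fold change was 0.66 with library size only, where the median of all genes also rose, to 0.126 from 0.019, 0.569 with at least 10 counts in every library, 0.566 without the overlapped members, and 0.499 to 0.59 across the fits without a replicate. Genes called over the whole table ranged from 6805 to 7914 across those fits. A replicate block gave 7195 called genes (7129 of them also called without it), the median was 0.488, and *ATG4C* lost its call. Same-letter libraries deviated from their group means with correlations of -0.2155, -0.2453 and -0.0217. Different-letter pairs were not set beside them, so these values cannot settle whether the letters pair the libraries.

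Directions that turned belonged to genes not called in any fit. With library size only, *ATG10*, *ATG12*, *BECN1* and *ATG4D* had log2 fold changes of 0.08, 0.07, 0.10 and 0.05. With at least 10 counts, *ATG10* and *BECN1* had 0.00 and 0.02, with no filter *BECN1* had 0.00, and with limma-voom *BECN1* and *MCOLN1* had 0.01 and -0.01. Across the fits without a replicate *ATG10* ranged from -0.06 to 0.08, *ATG12* from -0.07 to 0.03, *BECN1* from -0.07 to 0.10, *ATG4D* from -0.16 to 0.05, *AMBRA1* from -0.02 to 0.14 and *MCOLN1* from -0.03 to 0.07. The cause was not tested. Over single members and alternatives, 597 values kept their direction and their side of the threshold, 20 lost a call, 6 gained one and 21 turned direction without a call. In TH588 replicate A, 3 counts equal 0.112 CPM, which limits *MITF* and *TFEB*.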

Other observations

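The lists of p53-linked autophagy genes and of genes that control TFEB through mTORC1 are given here by gene. All 6 p53-linked genes were higher, beside 24.2% of all genes tested, with a median log2 fold change of 1.81. *TP53INP1*, which encodes a protein that binds ATG8 proteins, rose from 2.85, 2.78 and 2.63 CPM to 28.5, 28.0 and 27.9 CPM (log2 fold change 3.36, adjusted p = 1.98e-09 by edgeR). *DRAM1*, a lysosomal membrane protein induced by p53 and named here after its values were seen, rose from 4.80 ± 0.151 to 16.8 ± 2.16 CPM (SD, n = 3 each). *SESN1* and *SESN2*, which restrain mTORC1, rose with log2 fold changes of 2.08 and 1.82.

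Of 18 genes of the mTORC1 and Rag list, 10 were higher, 3 lower and 5 did not pass by edgeR. Over all genes tested, 24.2% were higher and 25.3% lower. *LAMTOR2*, a subunit of the anchor that holds mTORC1 at the lysosome, rose from 86.4, 108.9 and 104.7 CPM to 221.0, 152.8 and 181.4 CPM, highest in TH588 replicate A. *RRAGB* and *LAMTOR4* rose by 0.75 and 0.60 on the log2 scale. Of the exon bases of *LAMTOR4*, 18.4% overlap other genes. *FNIP2*, a partner of folliculin, had the largest fall of the list, from 36.3 ± 3.12 to 20.5 ± 0.818 CPM (log2 fold change -0.82). *RHEB*, the GTPase that activates mTORC1, and *RPTOR*, its scaffold, fell by 0.46 and 0.37.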
